A study of Rattus norvegicus with 28 samples.

Results

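The 7 genes described here are tied to the attraction and the granule and cytosolic contents of neutrophils, white blood cells that enter an inflamed lung early, and were followed across rat lungs that differed in injury and in mechanical ventilation. They are Prok2, Fpr1, Il8rb, Csf3r, S100a8, S100a9 and Retn, found by name in a table of 17002 genes, of which they are 7. The files call the interleukin-8 receptor Il8rb; its current symbol is Cxcr2. The 7 names were chosen because of their values in these libraries, above all in ventilated against unventilated lungs, so for these 7 genes those differences are given as a description with no p-value. Comparisons among ventilated groups and among unventilated groups carry p-values. They use the same libraries whose values were known when the names were chosen, so these p-values are no independent test of the 7 genes.

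Each library was made from poly(A)-selected RNA, taken in Sprague Dawley rats from the upper lobe of the right lung. The 6 ventilated groups had acute lung injury (acute_noisy, n = 4, and acute_VCV, n = 3), chronic lung injury (chronic_noisy, n = 3, and chronic_VCV, n = 3) or no earlier injury (healthy_noisy, n = 3, and healthy_VCV, n = 4). In the noisy groups the tidal volume, the volume of each breath, varied from breath to breath, and in the VCV (volume-controlled ventilation) groups it was constant. The 2 unventilated groups were control_chronic (n = 5), taken 14 days after chronic injury was induced, and control_blank (n = 3), with no injury. How injury was produced, how long ventilation lasted, and the age and sex of the rats are not given in the labels used here. The labels speak of animals without saying that each library is a separate rat, so p-values measure the spread between libraries.

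Neutrophils leave the blood along gradients of chemokines, formylated peptides and complement fragments, which they sense through G protein-coupled receptors, and then release stored granule and cytosolic proteins. In the lung they collect in capillaries and airspaces after bacterial products, acid or overdistension. Prok2 (prokineticin 2, also called Bv8) is a small secreted peptide known from work in mice to mobilise myeloid cells. Fpr1 binds formyl peptides shed by bacteria and mitochondria, Cxcr2 binds the chemokines Cxcl1 and Cxcl2, and Csf3r is the receptor of granulocyte colony-stimulating factor. S100a8 and S100a9 together form calprotectin, a calcium- and zinc-binding complex abundant in neutrophil cytosol. Retn encodes resistin, a hormone made mainly by fat cells in rodents and by myeloid cells in humans.

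Values are read counts divided by a size factor for each library, in no physical unit and not per length, so levels are compared between libraries and not between genes. Depth ran from 6024093 to 31923838 reads per library, the shallowest being control_chronic_113, and 3 reads correspond to a value between 1.66 and 9.53 depending on the library. All 7 genes had a mean value of at least 10 and were tested, among 14908 genes. The surfactant gene Sftpc, which marks alveolar type II cells, stood at 129597 or more in every library. Titles carry numbers in 4 series that are not explained: series 12 holds control_blank and acute_VCV, series 14 chronic_noisy with most of healthy_VCV and 2 acute_noisy libraries, series 15 chronic_VCV, healthy_noisy, 1 healthy_VCV and 2 acute_noisy libraries, and series 18 control_chronic. Where the groups compared share no series, series and group cannot be told apart.

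Promoter sequence is shown for 4 of the genes because they moved together in the libraries and because each holds a motif searched for. RefSeq promoters of the rat build GRCr8, from 250 bases before to 50 bases after the gene start, were found for 6 of the 7 genes, all but S100a8. Both strands were searched for GAGGAA, the core bound by the myeloid factor PU.1, for TATAAA, for GGGNNTTCC, an NF-kappa-B core, and for TTGCNNAA and its reverse complement TTNNGCAA, a C/EBP core. GAGGAA was in 3 of 6, against 27.6% of 33469 promoters, and TATAAA in 2 of 6, against 14.2%. GGGNNTTCC was in 0 of 6, against 5.92%, and TTGCNNAA in 0 of 6, against 10.6%. GGGNNTTCC matches only that spacing, and longer forms of the NF-kappa-B site were not searched. The Retn window holds gggaaattcc, which has a further base in the middle and was not counted. The 0 of 6 is thus no absence of NF-kappa-B-like sites. Capitals below mark the matches, read 5′ to 3′ on the strand of the gene; the Prok2 match (TTTATA) and the first S100a9 match (TTCCTC) lie on the opposite strand. The windows are Prok2 at chr4:133917884-133918183 (minus strand), Fpr1 at chr1:67422471-67422770 (minus strand), Csf3r at chr5:143582970-143583269 (plus strand) and S100a9 at chr2:178490573-178490872 (minus strand).
Prok2: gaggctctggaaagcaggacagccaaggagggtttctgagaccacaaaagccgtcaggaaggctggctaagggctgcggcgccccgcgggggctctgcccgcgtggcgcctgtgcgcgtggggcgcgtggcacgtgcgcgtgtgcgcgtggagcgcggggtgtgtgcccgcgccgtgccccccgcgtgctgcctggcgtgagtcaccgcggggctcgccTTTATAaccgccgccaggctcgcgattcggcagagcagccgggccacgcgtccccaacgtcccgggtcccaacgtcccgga
Fpr1: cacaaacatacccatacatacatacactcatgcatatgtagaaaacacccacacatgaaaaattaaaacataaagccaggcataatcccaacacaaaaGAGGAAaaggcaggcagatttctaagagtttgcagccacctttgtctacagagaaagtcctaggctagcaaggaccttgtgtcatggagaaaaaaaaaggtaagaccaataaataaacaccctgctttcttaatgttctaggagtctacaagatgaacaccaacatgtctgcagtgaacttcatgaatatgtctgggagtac
Csf3r: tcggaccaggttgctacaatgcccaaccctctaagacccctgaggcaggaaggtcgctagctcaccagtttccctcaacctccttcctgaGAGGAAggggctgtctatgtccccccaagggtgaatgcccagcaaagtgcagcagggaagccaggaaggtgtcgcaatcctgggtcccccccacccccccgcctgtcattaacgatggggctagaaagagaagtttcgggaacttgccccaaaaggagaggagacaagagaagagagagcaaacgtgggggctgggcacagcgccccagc
S100a9: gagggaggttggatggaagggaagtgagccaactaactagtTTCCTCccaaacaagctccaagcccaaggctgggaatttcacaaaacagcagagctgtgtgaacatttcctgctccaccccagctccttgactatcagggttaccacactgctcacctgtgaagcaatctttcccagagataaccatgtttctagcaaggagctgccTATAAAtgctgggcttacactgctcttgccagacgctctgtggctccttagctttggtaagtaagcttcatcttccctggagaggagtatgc
The Prok2 match began at position -31 and the S100a9 TATAAA at -42 relative to the gene start. The GAGGAA matches began at -152 in Fpr1, -160 in Csf3r and, on the opposite strand, -209 in S100a9. A match describes the letters and is not a binding site shown by these data.

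**Figure D1:**
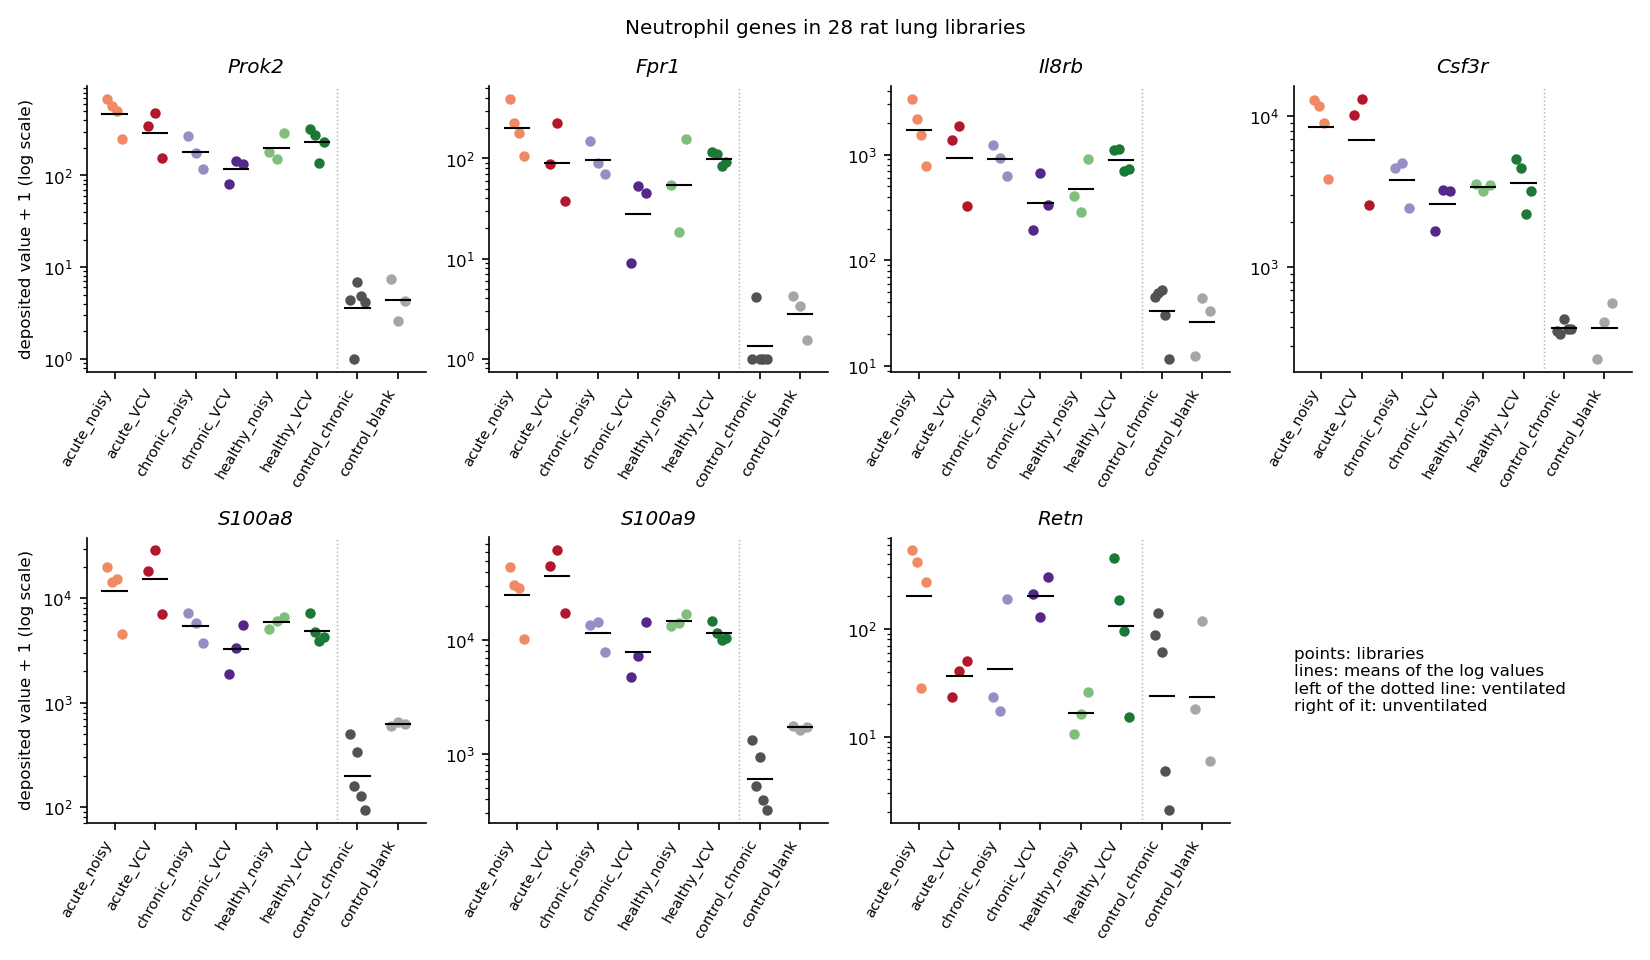
Deposited value plus 1 (log axis) of each gene in every library, by group, with lines at the means of the log values; ventilated groups stand left of the dotted line and unventilated groups right of it. For every gene except Retn all 20 ventilated libraries lie above all 8 unventilated libraries, while the ventilated libraries of Retn, from 9.65 to 532, overlap its unventilated ones, from 1.07 to 139.8.

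Prok2, the ligand of the set, was close to the limit of detection in unventilated lungs and was far above it in every ventilated lung. In acutely injured lungs its values were 682, 576, 507 and 251 under variable and 344, 479 and 152 under constant ventilation. Chronically injured ventilated lungs had 267, 177 and 118 under variable and 80.1, 144 and 133 under constant ventilation. The highest libraries were thus acutely injured ones, and the lowest ventilated library was chronic_VCV 069. Ventilated lungs without earlier injury had 177, 151 and 291 under variable and 322, 276, 137 and 228 under constant ventilation. Unventilated lungs had 3.36, 0, 5.95, 3.82 and 3.21 in control_chronic and 6.48, 1.60 and 3.32 in control_blank, which are 0 to 8 reads per library. Ventilated and unventilated libraries did not overlap. In whole tissue such as this, more neutrophils and more RNA of a gene per cell cannot be told apart.

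Among the receptors, Fpr1 was close to the limit of detection in unventilated lungs. It ranged from 8.11 to 392 in the 20 ventilated libraries, and from 0 to 3.24 in the 8 unventilated ones. In control_chronic a total of 1 read in 5 libraries was assigned to it, and 4 libraries were at 0. Pooled reads put chronic_noisy at 325 times and chronic_VCV at 104 times control_chronic, with exact 95% intervals of 58.0 to 12874 and 18.1 to 4139 that cover counting error only and are wide because of the single read. In control_blank the values were 3.24, 2.40 and 0.55, or 1 to 4 reads. The lowest ventilated library was again chronic_VCV 069, at 8.11, with its group mates at 52.1 and 44.4.

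Il8rb had measurable values in every library. Acutely injured lungs had 3361, 2192, 1529.9 and 779.9 under variable and 1377, 1847 and 322 under constant ventilation. Chronically injured ventilated lungs had 1246, 934 and 632 under variable and 193, 670.1 and 335 under constant ventilation. Within each of the VCV groups with injury the libraries differed severalfold, acute_VCV 040 and chronic_VCV 069 being the low ones. Ventilated lungs without earlier injury had 402, 286 and 899 under variable and 1115, 1129.5, 696 and 726 under constant ventilation. Unventilated lungs had 43.7, 47.7, 51.5, 29.3 and 10.7 in control_chronic and 11.3, 43.1 and 32.1 in control_blank. The unventilated groups overlapped each other and stayed below every ventilated library.

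Csf3r, which signals for the production and survival of neutrophils, was the receptor with the narrowest spread among unventilated lungs. Its values were 377, 359, 448, 387 and 389 in control_chronic and 246, 432 and 573 in control_blank. Ventilated libraries ranged from 1723 to 12984, with means of 9313 ± 3961 in acute_noisy and 8549 ± 5383 in acute_VCV (SD, n = 4 and n = 3). The other ventilated groups averaged 3956 ± 1297 in chronic_noisy, 2717 ± 861 in chronic_VCV, 3413 ± 204 in healthy_noisy and 3787 ± 1317 in healthy_VCV (SD, n = 3, 3, 3 and 4). The acutely injured groups had the highest means, but acute_VCV 040, at 2559.9, lay within the range of uninjured ventilated lungs.

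The calprotectin genes were present in unventilated lungs too, at levels that differed between uninjured and chronically injured tissue. S100a9 had 44271, 30515, 28669.7 and 10138 in acute_noisy and 44907, 61267 and 17426 in acute_VCV. Its values were 13507, 14534 and 7854 in chronic_noisy and 4761, 7292 and 14342 in chronic_VCV. The 3 highest S100a9 libraries were acutely injured and the lowest ventilated library was chronic_VCV 069. Ventilated lungs without earlier injury had 13267, 14147 and 16993 under variable and 14701, 11535, 10011 and 10498 under constant ventilation. Unventilated lungs had 1327, 524, 936, 389.7 and 318 in control_chronic and 1757, 1630.5 and 1725 in control_blank. Every control_chronic library was below every control_blank library, and the control_blank libraries lay close together. S100a8 followed the same order, with 1886 to 28725 in ventilated libraries, 92.1 to 501 in control_chronic and 592 to 657 in control_blank.

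Retn behaved unlike the other 6 genes. Acutely injured lungs had 532, 413, 27.1 and 271 under variable and 22.3, 39.9 and 49.5 under constant ventilation. Chronically injured ventilated lungs had 22.3, 16.2 and 187 under variable and 209.9, 129 and 303 under constant ventilation. Of the acute_noisy libraries 3 were high, while acute_noisy 046, at 27.1, was as low as acute_VCV. Ventilated lungs without earlier injury had 9.65, 15.3 and 24.8 under variable and 456, 185, 94.4 and 14.1 under constant ventilation. Unventilated lungs had 87.5, 139.8, 59.5, 3.82 and 1.07 in control_chronic and 17.0, 116.6 and 4.98 in control_blank. Ventilated libraries overlapped unventilated ones.

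Ventilated lungs were set against the unventilated lungs of the same injury state, and acutely injured ventilated lungs against control_blank because no unventilated acute group is among the samples. Changes are differences of mean log2(value + 1), which understate the change of a gene with low values, with the standard error of the limma fit. The comparisons with acute_noisy, acute_VCV, healthy_noisy and healthy_VCV share the control_blank libraries, and the chronic ones share control_chronic. For Prok2 the difference was 6.76 ± 0.53 in acute_noisy, 6.07 ± 0.56 in acute_VCV, 5.62 ± 0.51 in chronic_noisy, 5.01 ± 0.51 in chronic_VCV, 5.51 ± 0.56 in healthy_noisy and 5.72 ± 0.53 in healthy_VCV. For Il8rb these were 6.04 ± 0.61, 5.16 ± 0.65, 4.77 ± 0.58, 3.41 ± 0.58, 4.17 ± 0.65 and 5.09 ± 0.61 in the same groups, and for S100a9 3.88 ± 0.48, 4.41 ± 0.51, 4.25 ± 0.46, 3.71 ± 0.46, 3.11 ± 0.51 and 2.76 ± 0.48. Of these 3 genes Prok2 had the largest difference in each group, and S100a9 the smallest in all but chronic_VCV. The differences of Prok2 and Fpr1 rest on unventilated values near the limit of detection, so they depend on the 1 added to each value and are no bounds. Fpr1 ranged over these groups from 4.26 to 6.19, Csf3r from 2.74 to 4.43, and S100a8 from 2.97 to 4.75. Retn ranged from -0.50 in healthy_noisy to 3.12 in acute_noisy.

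The genes were picked on these contrasts, so the counts that follow describe the choice and test nothing. Higher than in their unventilated lungs at an adjusted p under 0.05, in the fit across all genes, were 7 of the 7 in acute_noisy, beside 31.3% of all genes tested. In acute_VCV the count was 6 of 7, beside 20.6% of all genes. In chronic_noisy it was 6 of 7, beside 19.1%, and in chronic_VCV 6 of 7, beside 6.89%. In healthy_noisy it was 6 of 7, beside 17.5%, and in healthy_VCV 6 of 7, beside 29.3%. Retn was the gene not counted in 5 of these comparisons. The 6 other genes also had no overlap of libraries in each comparison, where 24.3%, 23.1%, 22.4%, 10.3%, 19.5% and 30.2% of all genes were likewise higher without overlap, in the order acute_noisy, acute_VCV, chronic_noisy, chronic_VCV, healthy_noisy and healthy_VCV. Only acute_VCV and control_blank come from the same number series, and there the differences ran from 4.14 for Csf3r to 6.07 for Prok2 among the 6 genes.

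**Figure D2:**
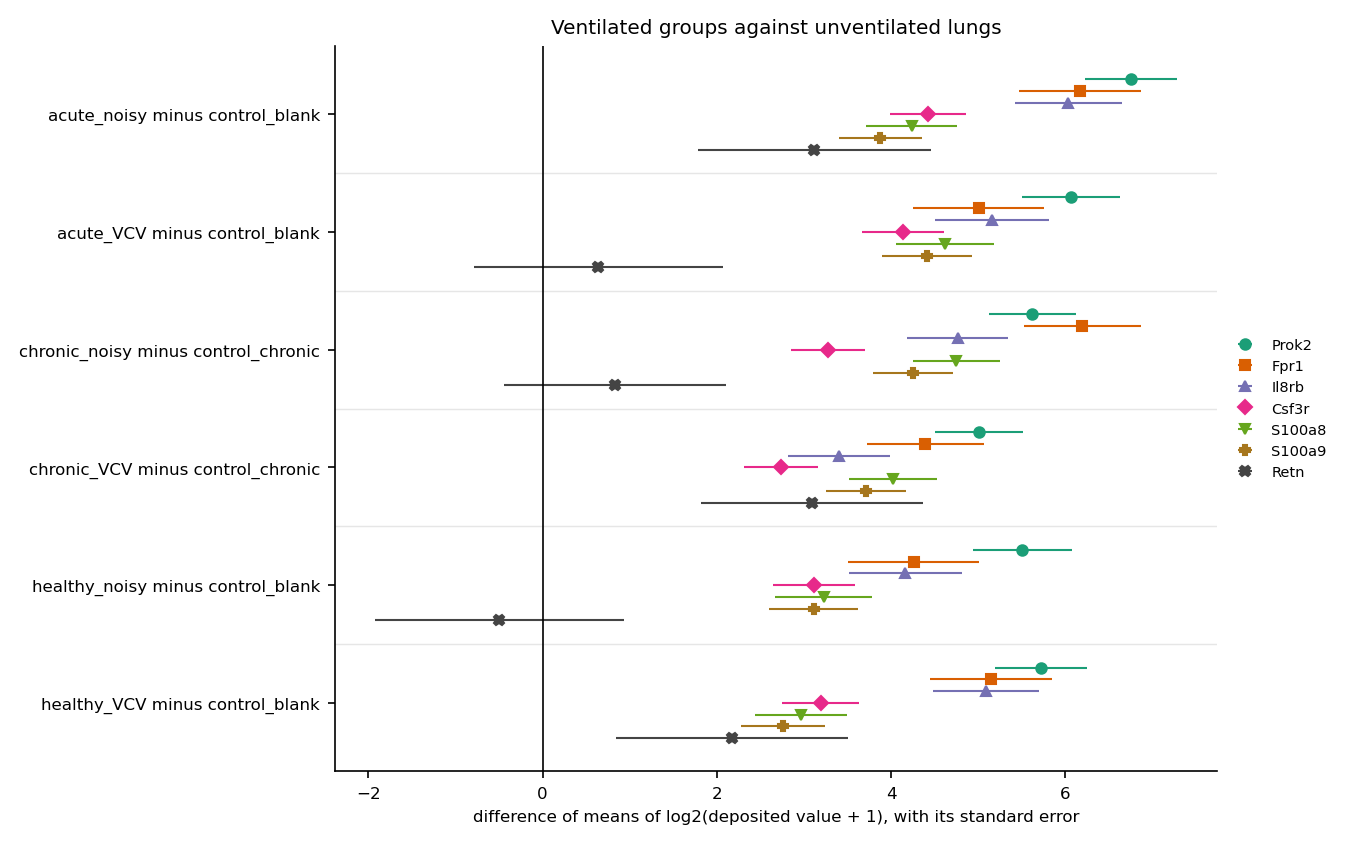
Difference of mean log2(value + 1) between each ventilated group and its unventilated lungs (horizontal axis), with standard errors, for the 7 genes (symbols). Every gene other than Retn lies at 2.74 or more in every row, and Retn spreads from -0.50 to 3.12.

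The order of the groups by mean value was acute_noisy, then acute_VCV, for Prok2, Fpr1, Il8rb and Csf3r, and acute_VCV, then acute_noisy, for S100a8 and S100a9. For these 6 genes chronic_VCV was the lowest of the ventilated groups. Neighbours in that order overlapped throughout the ventilated groups, and the first gap without overlap was between chronic_VCV and the unventilated groups. Among the unventilated groups only S100a8 and S100a9 were without overlap. For Retn every pair of neighbouring groups overlapped.

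Acute injury was assessed among ventilated lungs, with the same ventilation mode on both sides. Under constant ventilation 2 of the 7 genes, the calprotectin genes, were called higher with acute injury. Of all genes 26.1% were called higher, so the count is near the background and is no result about these genes in particular. S100a8 was 18162, 28725 and 6996 in acute_VCV and 7258, 4769, 3901 and 4244 in healthy_VCV, a difference of 1.65 ± 0.52 (adjusted p = 0.0105, limma with Benjamini-Hochberg adjustment over all genes). For S100a9 the libraries of acute_VCV were all above those of healthy_VCV, and the difference was 1.65 ± 0.48 (adjusted p = 0.00576). S100a9 is 1 of 7 higher without overlap, where 29.6% of all genes were. Csf3r differed by 0.95 ± 0.44 (adjusted p = 0.0745), and passed with edgeR on the reads (adjusted p = 0.0192). Prok2 differed by 0.35 (95% interval -0.74 to 1.44), Fpr1 by -0.14 (-1.59 to 1.31), Il8rb by 0.07 (-1.19 to 1.33) and Retn by -1.53 (-4.29 to 1.22). Without acute_VCV 049, the library with the highest S100a8 and S100a9, 0 of 7 passed, where 3503 of all 14908 genes were called higher. The groups come from different number series, so series and acute injury cannot be told apart here.

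Under variable ventilation the receptors Fpr1, Il8rb and Csf3r, and Retn, were called higher in acute_noisy than in healthy_noisy, calls that several other fits lost. Of the acute_noisy libraries 2 are of series 14, while healthy_noisy is all of series 15. Whether the difference departs from that under constant ventilation is the interaction given further on. Fpr1 was 392, 227, 179 and 104 in acute_noisy and 53.1, 17.4 and 157 in healthy_noisy, a difference of 1.91 ± 0.70 (limma adjusted p = 0.0467). Il8rb differed by 1.87 ± 0.61 (adjusted p = 0.0272). Healthy_noisy 029 was the library whose Fpr1 and Il8rb values lay within the acute_noisy range. Csf3r was 12690.3, 11700.1, 9014 and 3847 in acute_noisy and 3556, 3179 and 3504 in healthy_noisy, without overlap, and differed by 1.31 ± 0.44 (adjusted p = 0.0314). Retn, also without overlap, differed by 3.62 ± 1.34 (adjusted p = 0.0472). The 4 genes called are 4 of 7, where 12.9% of all genes were called higher, and the 2 without overlap are 2 of 7, where 11.5% were. Prok2 differed by 1.25 ± 0.53 (adjusted p = 0.0794), S100a8 by 1.01 ± 0.52 (adjusted p = 0.146) and S100a9 by 0.77 ± 0.48 (adjusted p = 0.23).

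With edgeR 5 of 7 passed, with a pseudocount of 10 also 5 and with quantile normalization 4, but other fits ended the calls. The shares of all genes called in these first fits, and without acute_noisy 053, are not given here. Their counts therefore stand without a background, and nothing about these genes in particular is read from them. A fit of the 2 groups alone called 0 of 7, as did a fit limited to series 15 and a fit with series as a covariate. Over all 14908 genes these fits called only 8, 10 and 409 higher, so 0 of 7 there is no result about these genes in particular. Leaving out acute_noisy 047, acute_noisy 050, healthy_noisy 061 or healthy_noisy 078 also left 0 of 7, and leaving out healthy_noisy 029 left 2. Of all 14908 genes 783, 886, 874, 1915 and 1053 were called higher in these 5 fits, in that order. Without acute_noisy 053 there were 6, as Prok2 (adjusted p = 0.0271), S100a8 (adjusted p = 0.023) and S100a9 (adjusted p = 0.0379) passed in limma and Retn did not (adjusted p = 0.0583). In the fit of the 2 groups alone the differences were as given above. With series as a covariate they were 1.63 for Fpr1, 1.59 for Il8rb, 1.11 for Csf3r and 3.16 for Retn, and within series 15 1.35, 1.22, 0.79 and 2.41 for the same genes. Within series 15, the 2 acute_noisy libraries overlapped healthy_noisy for Fpr1 and Il8rb, and lay above it for Csf3r, at 9014 and 3847 against 3179 to 3556, and for Retn, at 27.1 and 271 against 9.65 to 24.8. Across the acute_noisy and healthy_VCV groups, which hold libraries of series 15 and series 14, series 15 minus series 14 was -0.92 to -0.31 for the 7 genes, and 0 of 7 passed in limma, where 1.15% of all genes did.

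Chronic injury under ventilation gave no call for any of the 7 genes. In chronic_noisy against healthy_noisy 0 of 7 genes passed, also with edgeR, where 4.69% of all genes passed with limma. At an unadjusted p under 0.05 there were 0 of 7, beside 29.2% of all genes, and differences ran from -0.35 for S100a9 to 1.36 for Retn. In chronic_VCV against healthy_VCV 0 of 7 passed, also with edgeR, where 2.46% of all genes passed with limma. An unadjusted p under 0.05 was found for 2 of 7, beside 26.5% of all genes. Those 2 were Fpr1 and Il8rb, the formyl peptide and chemokine receptors. Fpr1 was 8.11, 52.1 and 44.4 in chronic_VCV and 113.9, 111, 83.7 and 90.2 in healthy_VCV, a difference of -1.83 ± 0.70 (limma adjusted p = 0.11). Il8rb differed by -1.34 ± 0.61 (adjusted p = 0.163). Both were lower without overlap, as were 16.2% of all genes. Chronic_noisy is all of series 14 and healthy_noisy all of series 15, so series and chronic injury cannot be told apart there. Chronic_VCV is all of series 15, which it shares with only 1 healthy_VCV library.

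Without ventilation, chronic injury went with lower calprotectin transcripts. S100a8 was 501, 159, 337, 126 and 92.1 in control_chronic and 592, 657 and 628 in control_blank. S100a8 fell by 1.65 ± 0.50 on the log2 scale (limma adjusted p = 0.0312) and S100a9 fell by 1.49 ± 0.46 (adjusted p = 0.0322). These are 2 of 7 lower, where 5.55% of all genes were called lower, and the same 2 were lower without overlap, as were 10.3%. Csf3r differed by -0.01 ± 0.42, Il8rb by 0.34 ± 0.58, Prok2 by -0.28 ± 0.51 and Retn by 0.03 ± 1.28, with 95% intervals of -0.88 to 0.86, -0.86 to 1.55, -1.32 to 0.76 and -2.61 to 2.66. Fpr1 was too near the limit of detection in both groups for a fold. The calls were lost in a fit of the 2 groups alone (0 of 7), without control_blank 016 or 021 (0 of 7 each), without control_chronic_113, control_chronic_115 or control_chronic_117 (0 of 7 each), and without the 2 shallowest control_chronic libraries (0 of 7). Of all 14908 genes these fits called 866, 204, 1182, 1470, 1569, 1136 and 701 in either direction, in that order. The main fit called 2214. A count of 0 of 7 in those fits is near the background. Without those 2 shallowest the differences were as large, at -1.79 for S100a8 (adjusted p = 0.0641, limma) and -1.63 for S100a9 (adjusted p = 0.0666). With edgeR 1 of 7 passed, where 1849 of all genes did. Control_chronic makes up a number series of its own, so series and chronic injury cannot be told apart.

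**Figure D3:**
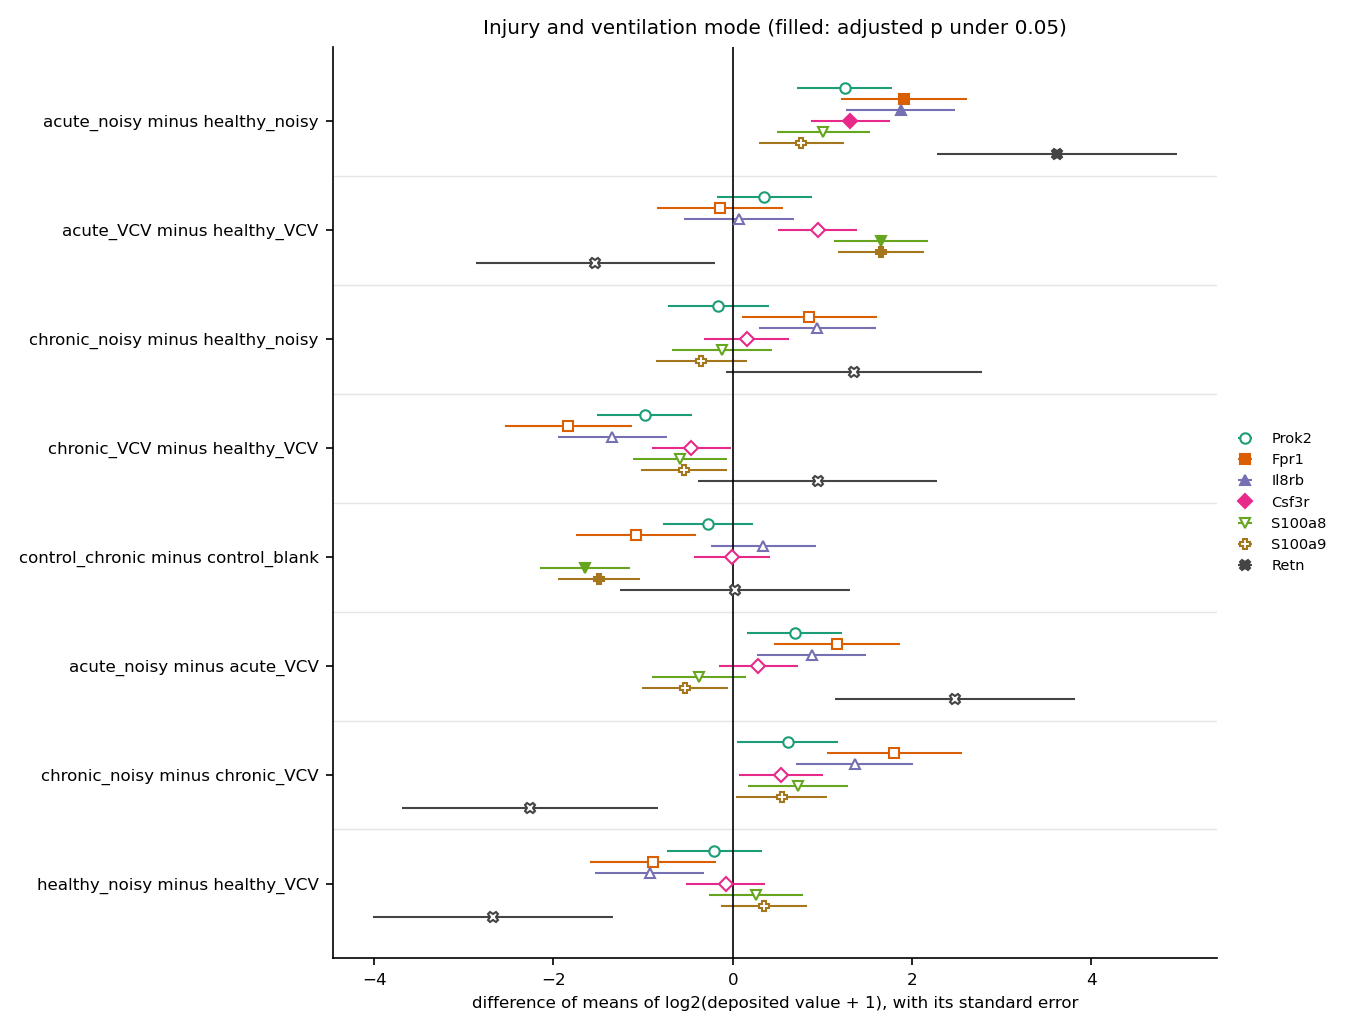
Difference of mean log2(value + 1), with standard errors, for the 7 genes in 8 comparisons among ventilated or among unventilated groups; filled symbols have an adjusted p under 0.05. The filled symbols are Fpr1, Il8rb, Csf3r and Retn for acute_noisy minus healthy_noisy, and S100a8 and S100a9 for acute_VCV minus healthy_VCV and for control_chronic minus control_blank.

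The study's contrast of variable with constant ventilation gave 0 of 7 calls in each injury state, with limma and with edgeR. In acute injury 24.2% of all genes passed, in chronic injury 2.43% and in uninjured lungs 10.3%. At an unadjusted p under 0.05 there were 0 of 7 in acute injury, 2 of 7 in chronic injury and 0 of 7 in uninjured lungs, beside 38.1%, 23.5% and 32.1% of all genes. Variable and constant ventilation come from different number series in acute and in chronic injury, so series and mode cannot be told apart there. In uninjured lungs healthy_noisy is all of series 15, which it shares with only 1 healthy_VCV library, so series and mode are largely mixed there too. The 2 genes in chronic injury were Fpr1, which differed by 1.80 ± 0.75 (adjusted p = 0.16), and Il8rb, which differed by 1.36 ± 0.65 (adjusted p = 0.209). Fpr1 was 149, 88.5 and 68.2 in chronic_noisy and 8.11, 52.1 and 44.4 in chronic_VCV, higher without overlap, as were 15.9% of all genes. In acute injury the same 2 genes differed by 1.16 ± 0.70 and 0.88 ± 0.61, and in uninjured lungs by -0.89 ± 0.70 and -0.93 ± 0.61. S100a9 differed by -0.54 in acute injury, 0.54 in chronic injury and 0.35 in uninjured lungs, with 95% intervals of -1.53 to 0.45, -0.51 to 1.60 and -0.64 to 1.34.

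Whether the mode effect itself differed between injury states was tested as an interaction. For acute minus uninjured, Retn passed, at 5.15 ± 1.89 (limma adjusted p = 0.0339), which is 1 of 7, where 39.0% of all genes passed. Acute_VCV lies wholly in series 12, which no other group of this test shares, so series and this interaction cannot be told apart. Retn averaged 311 ± 217 in acute_noisy and 37.2 ± 13.8 in acute_VCV, but 16.6 ± 7.66 in healthy_noisy and 187 ± 192 in healthy_VCV (SD, n = 4, 3, 3 and 4). The acute_noisy and acute_VCV libraries overlapped, as did the healthy_noisy and healthy_VCV libraries. The call was lost when any of 8 libraries was left out, namely acute_VCV 040 or 045, acute_noisy 047 or 050, healthy_VCV 060 or 062, and healthy_noisy 061 or 078 (0 of 7 each). Over all genes those 8 fits called 4320 to 5829. The count became 3 of 7 without acute_VCV 049, and 2 of 7 without acute_noisy 053 or healthy_noisy 029. Of the 14908 genes tested, 5755, 6757 and 5263 were called in those 3 fits, in that order. For chronic minus uninjured 0 of 7 passed with limma and with edgeR, where 29.7% of all genes passed with limma. An unadjusted p under 0.05 was found for 2 of 7, beside 42.8% of all genes. Those were Fpr1 at 2.69 ± 1.03 (adjusted p = 0.0511) and Il8rb at 2.29 ± 0.89 (adjusted p = 0.0547), and 2 of 7 passed without chronic_VCV 073 or healthy_noisy 029. Over all genes 4321 and 3701 were called in those 2 fits. The difference between the effects of ventilation in chronically injured and in uninjured lungs gave 0 of 7 for constant ventilation, where 23.9% of all genes passed, and 0 of 7 for variable ventilation, where 2.66% did, and edgeR gave 0 of 7 in both. An unadjusted p under 0.05 was found for 0 of 7 in both, beside 38.3% and 15.1% of all genes.

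S100a8 and S100a9 are neighbours on rat chromosome 2 with 0 annotated genes between them in RefSeq (GRCr8), and their transcripts varied together. The S100a9 value divided by the S100a8 value, which is not corrected for transcript length, lay between 1.87 and 3.45 in all 28 libraries. It was 1.89 to 2.23 in acute_noisy, 2.13 to 2.49 in acute_VCV, 1.87 to 2.51 in chronic_noisy, 2.21 to 2.60 in chronic_VCV, 2.36 to 2.59 in healthy_noisy, 2.03 to 2.57 in healthy_VCV, 2.65 to 3.45 in control_chronic and 2.48 to 2.97 in control_blank. The control_chronic libraries stood above those of both chronic ventilated groups without overlap. A 2-sided exact permutation test of the log2 ratio was run in 14 comparisons. The smallest p these group sizes allow is 0.0357 to 0.1, so that none could pass after adjustment, and the test says nothing of whether the ratio differed.

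**Figure D4:**
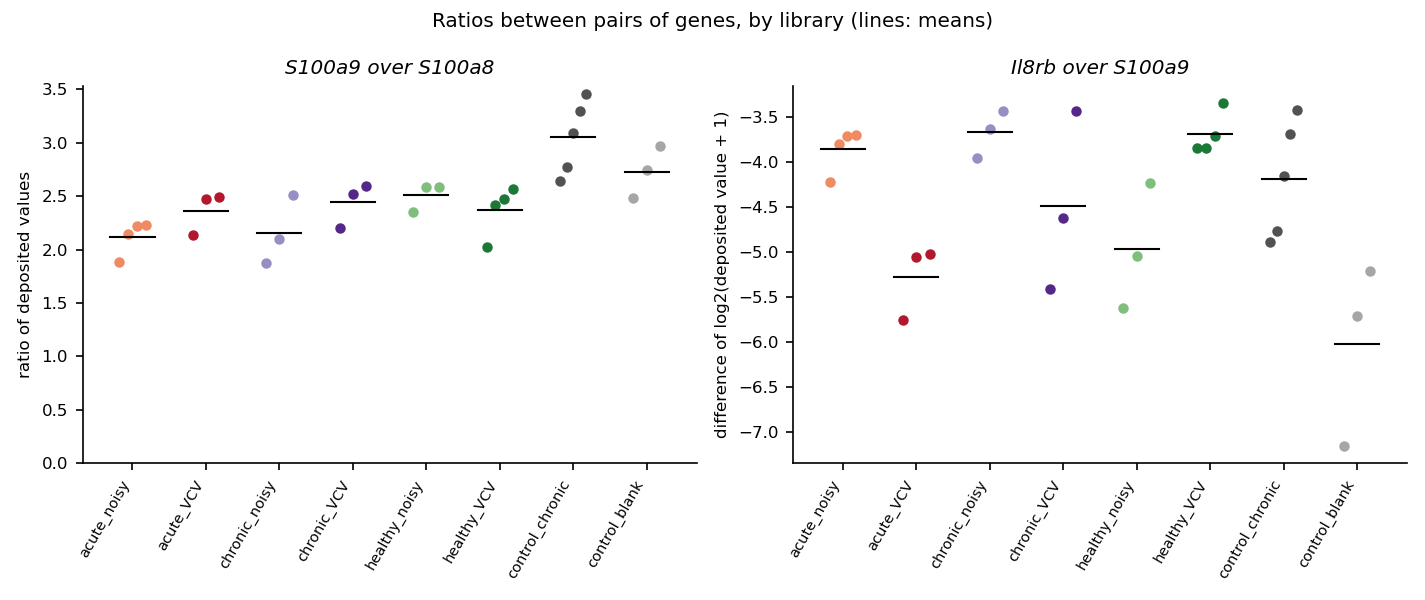
S100a9 value over S100a8 value (left) and log2 difference of Il8rb and S100a9 (right) in every library, by group, with lines at the means. The left panel spans 1.87 to 3.45, with control_chronic highest; on the right, acute_VCV lies below acute_noisy and healthy_VCV.

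The proportion of Il8rb to S100a9 varied between groups. Log2(Il8rb + 1) minus log2(S100a9 + 1) was -4.23 to -3.70 in acute_noisy and -5.75 to -5.03 in acute_VCV, against -5.62 to -4.24 in healthy_noisy and -3.85 to -3.35 in healthy_VCV. The acute_VCV libraries lay below those of both acute_noisy and healthy_VCV. The difference was -3.96 to -3.44 in chronic_noisy and -5.41 to -3.44 in chronic_VCV, against -4.89 to -3.43 in control_chronic, and -7.15 to -5.21 in control_blank. This ratio was computed after the separate results were seen and was not tested. Over the 20 ventilated libraries Fpr1 and Il8rb had r = 0.942 (rho = 0.929), while Il8rb and S100a9 had r = 0.703 (rho = 0.650), on log2(value + 1). S100a8 and S100a9 had r = 0.989 (rho = 0.961). The 15 pairs without Retn ranged in r from 0.659 to 0.989, and from 0.546 to 0.981 without the 2 libraries farthest from the median of the first gene. The 6 pairs with Retn ranged from -0.102 to 0.172. These libraries share groups, series and size factors, so the coefficients describe them and carry no p.

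Among 12379 other named genes, those most like each gene over all 28 libraries, by Pearson's r of log2(value + 1), had r of 0.954 to 0.988 for the 6 genes, which includes the gap between ventilated and unventilated lungs. Within the 20 ventilated libraries, Prok2 had r = 0.904 with Il1r2, the decoy receptor of interleukin-1, 0.789 with Pram1 and 0.920 with Clec4e. Fpr1 had r = 0.983 with Mmp8, the neutrophil collagenase, 0.928 with Tlr2 and 0.943 with Clec4d. Il8rb had r = 0.969 with Clec4d and 0.946 with Ifit1lb. Most of these neighbours encode proteins of myeloid cells. S100a8 had r = 0.880 with Pram1, 0.898 with Clec4e and 0.913 with Il1r2, and S100a9 had 0.865, 0.883 and 0.906 with the same genes. Csf3r had r = 0.959 with Il1r2, 0.918 with Ifit1lb and 0.928 with F2rl2. For Retn the nearest genes reached only 0.662 (Cacna1c), 0.649 (Eid3) and 0.634 (Gpr35) over 28 libraries.

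Other genes of neutrophil traffic and granules, listed by role, were counted in the same fits. Of 53 tested, 30 were higher and 8 lower in acute_noisy than in control_blank, beside 31.3% higher and 28.4% lower of all genes. In acute_VCV 25 were higher and 3 lower, beside 20.6% and 16.7%. The median log2 difference of the list was 1.58 in acute_noisy and 1.00 in acute_VCV, beside 0.03 and 0.07 for all genes. In chronic_noisy 22 were higher and 6 lower than in control_chronic, beside 19.1% and 18.1% of all genes, and in chronic_VCV 14 higher and 3 lower, beside 6.89% and 7.90%. In healthy_noisy 18 were higher and 7 lower than in control_blank, beside 17.5% and 14.6%, and in healthy_VCV 19 higher and 10 lower, beside 29.3% and 28.1%. Mmp8 was higher by 5.86 ± 0.54, 5.18 ± 0.57, 5.43 ± 0.51, 4.09 ± 0.51, 4.60 ± 0.57 and 5.11 ± 0.54 in acute_noisy, acute_VCV, chronic_noisy, chronic_VCV, healthy_noisy and healthy_VCV. Csf2rb, the shared beta chain of the receptors for granulocyte-macrophage colony-stimulating factor and interleukin-5, was higher by 4.90 ± 0.49 in acute_noisy and 2.82 ± 0.53 in healthy_noisy. S100a16, a relative of the calprotectin genes, fell in 5 of the 6 ventilated groups, with differences of -0.82 ± 0.18 in acute_noisy, -1.20 ± 0.18 in chronic_noisy, -0.63 ± 0.18 in chronic_VCV, -0.81 ± 0.20 in healthy_noisy and -1.39 ± 0.18 in healthy_VCV. It ranged from 3538 to 5207 in acute_VCV, against 3099.6 to 5189 in control_blank, and was not called there.

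Ligands of Il8rb passed the test in acutely injured lungs. Of 8 chemoattractants tested, 0 passed in limma in chronic_noisy, chronic_VCV, healthy_noisy or healthy_VCV against unventilated lungs, while 1, 2, 1 and 1 had an unadjusted p under 0.05 and edgeR called 1, 1, 0 and 1, each of them lower. In acute_noisy 4 of 8 were higher than in control_blank, beside 31.3% of all genes, and in acute_VCV 3 of 8, beside 20.6%. Cxcl1 ranged from 435 to 2299 in acute_noisy and 1422 to 2473 in acute_VCV, against 171 to 388 in healthy_noisy, 157 to 326 in healthy_VCV and 202 to 459.5 in control_blank. In chronic injury it ranged from 103 to 243 in chronic_noisy and 165 to 2186 in chronic_VCV, against 209.7 to 525 in control_chronic, so that a chronic_VCV library reached the acute range. For Il8rb, the receptor of Cxcl1, the difference between acute_VCV and healthy_VCV was 0.07 ± 0.61, as given above. Under variable ventilation Il8rb was called higher with acute injury, a call that several other fits lost. Cxcl1 rose with acute injury by 2.08 ± 0.62 under variable ventilation (limma adjusted p = 0.0176) and by 3.09 ± 0.62 under constant ventilation (adjusted p = 0.000236), and Cxcl2 by 2.79 ± 0.89 and 2.95 ± 0.89 (adjusted p = 0.025 and 0.00784). Csf3, the ligand of Csf3r, ranged from 4.89 to 232 in acute_noisy and 22.8 to 169.9 in acute_VCV, against 0.55 to 1.62 in control_blank. It was higher in both (adjusted p = 0.000365 and 0.0021), and no fold is given because control_blank was under the value of 3 reads.

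**Figure D5:**
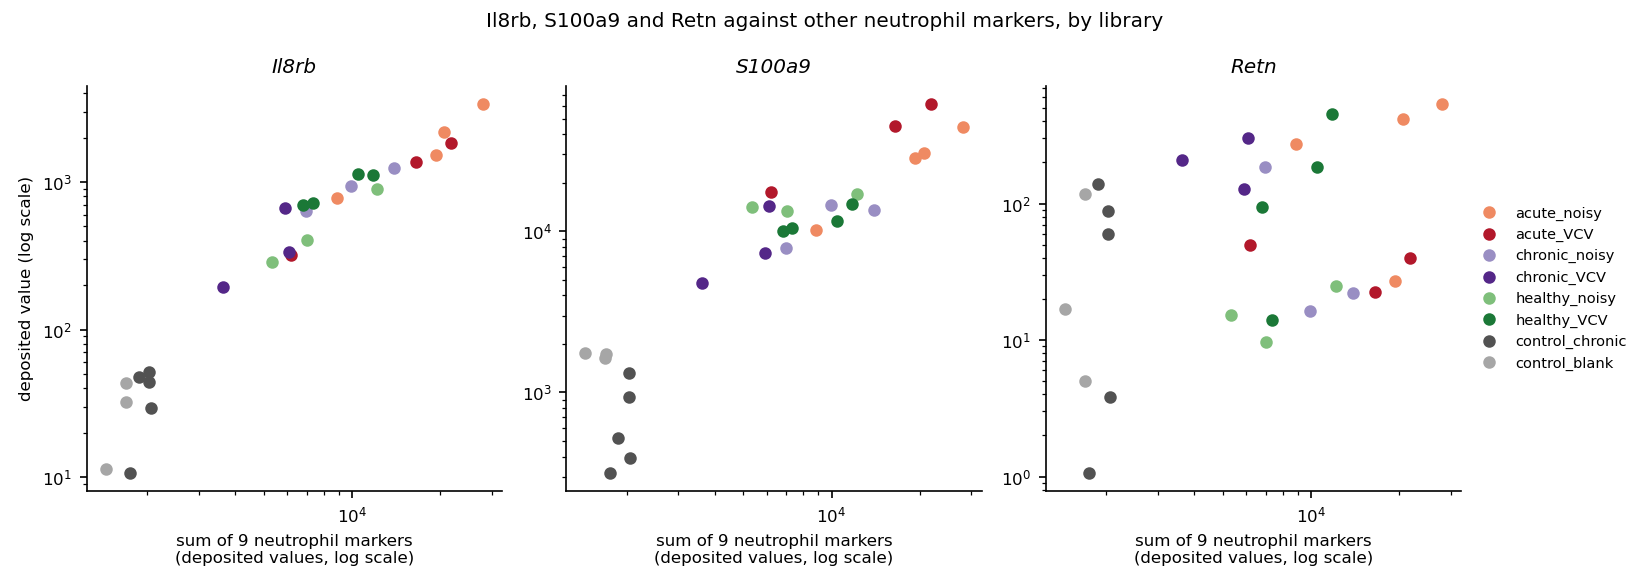
Value of Il8rb, S100a9 and Retn (vertical, log axis) against the summed value of 9 other neutrophil markers (horizontal, log axis) in every library, coloured by group. Il8rb and S100a9 climb with the marker sum, from 1442 to 2058 in unventilated lungs and from 3622 to 28105 in ventilated ones, while Retn is scattered at every sum.

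Markers of other cell types were summed beside these results. The sum of 9 of 10 listed neutrophil markers found, among them Mmp8 and Mmp9, was 8884 to 28105 in acute_noisy, 6200.1 to 21828 in acute_VCV, 6986 to 13938 in chronic_noisy, 3622 to 6106 in chronic_VCV, 5340.4 to 12216 in healthy_noisy, 6819 to 11750.3 in healthy_VCV, 1752 to 2058 in control_chronic and 1442 to 1694 in control_blank. Cd177, one of the 9 and named after its values were seen, averaged 1111 ± 682 in acute_noisy and 714 ± 636 in acute_VCV, against 422 ± 111 in control_blank (SD, n = 4, 3 and 3). Its range was 338 to 607 in chronic_noisy and 105 to 187 in chronic_VCV, against 400.5 to 762 in control_chronic, and 257 to 452 in healthy_noisy and 396 to 497 in healthy_VCV, against 320.3 to 541 in control_blank, overlapping in each but chronic_VCV, which lay below control_chronic. Over the 20 ventilated libraries the r of the sum with Prok2 was 0.959, with Il8rb 0.949, with S100a9 0.853 and with Retn 0.074 (rho 0.935, 0.962, 0.740 and 0.101). Without the 2 libraries farthest from the median sum, r was 0.936, 0.919, 0.783 and 0.000359. Monocytes also make S100a8 and S100a9. The 6 monocyte markers, with Ccr2 and Cx3cr1, summed to 5846 to 22866 in acute_noisy, 6018 to 11396 in acute_VCV, 7977 to 15296 in chronic_noisy, 3216 to 4895 in chronic_VCV, 5201 to 5825 in healthy_noisy, 3411 to 10403 in healthy_VCV, 4158 to 5861 in control_chronic and 3883 to 6218 in control_blank. The largest parts of this sum were Ly6c, Vcan and Cd14, with means of 2757, 1963 and 1949 over all libraries. Ccr2 and Cx3cr1 averaged only 132 and 86.6. The r of the monocyte sum was 0.739 with S100a8 and 0.687 with S100a9 over the 20 ventilated libraries. With Prok2 it was 0.730, with Il8rb 0.797 and with Retn 0.234. Without the 2 libraries farthest from the median sum, r was 0.653 with S100a8 and 0.579 with S100a9. The part of monocytes in the values of S100a8 and S100a9 was not tested. The 5 macrophage markers found summed to 3797 to 10882 over all libraries, with overlap between ventilated and unventilated ones. Squamous epithelium also makes S100a8 and S100a9, and the 4 of 8 squamous markers found summed to 218 to 725 over all libraries, with r of -0.149 with S100a9 over the ventilated ones.

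Fat cells, a source of resistin in rodents, could be caught with a lobe. The 7 of 8 adipocyte markers found summed to 2692 to 6291 over all libraries, and ranged from 2934 to 5265 in acute_noisy, 3320.0 to 4405 in acute_VCV, 3265 to 4127 in chronic_noisy, 2844 to 6291 in chronic_VCV, 2692 to 4973 in healthy_noisy, 3232 to 3846 in healthy_VCV, 3129 to 4981 in control_chronic and 2939.5 to 3856 in control_blank, all overlapping. Adipoq, the defining hormone of fat cells, was 165 in acute_noisy 047, the library with the highest Retn, but 7.89 in healthy_VCV 060, the second highest, and 174 in acute_VCV 040, where Retn was 49.5. Over 20 ventilated libraries the r of Retn with the adipocyte sum was 0.220 (rho = 0.197), and -0.077 without the 2 libraries farthest from the median sum. The sum was mostly Lipe, with a mean of 2591 over all libraries, while Adipoq averaged 35.8 and Plin1 13.2. It therefore says little of Adipoq or Plin1. Adipoq ranged from 1.01 to 174, and over 28 libraries Retn had r = 0.169 with Adipoq and 0.241 with Plin1. Retnlg, the resistin-like gamma gene and a relative of Retn that is known from myeloid cells in mice, was higher in ventilated lungs, by 4.38 ± 0.42 in acute_VCV and 4.84 ± 0.37 in chronic_noisy against their unventilated lungs. Its values were 542 to 758 in acute_VCV and 403 to 888 in chronic_noisy, against 12.7 to 33.6 in control_chronic and 21.9 to 36.8 in control_blank. Reads shared between related genes could have been assigned to either, since the counting rule is not given in the sources used here.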

How the data were processed

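RNA of an upper lung lobe was enriched for poly(A) with bead-bound oligo(dT) and made into strand-specific libraries by the dUTP method, per the labels' protocols, and sequenced on a HiSeq 2000. The submitters' processing notes name DESeq 1.8.3, BWA, CASAVA 1.8.0 and bedtools 2.11, and the build rn4, and per the file headers genes follow Ensembl 67; how strands and shared reads were counted is not given in the sources used here. The deposited values are a signal per gene: reads per gene over a size factor, of which each library has 1. In each of the 28 libraries 100% of values were whole multiples of a step within 0.1 read, which recovers the reads.

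Values were taken as log2(value + 1) for the 14908 genes with a mean of at least 10; limma 3.58.1 under R 4.3.3 fitted 8 group means, with a trend and a robust prior. Tests were 2-sided, with Benjamini-Hochberg adjustment over all genes and a threshold of 0.05, in 18 comparisons. edgeR 4.0.16 quasi-likelihood tests were run on the recovered reads. The fit was tested on simulated data. Replicates were not copies: over 37 pairs the smallest chi-square per gene was 13.5. The 7 genes, the lists of other neutrophil genes and the marker lists were chosen with earlier results of these data known. The genes named from each list are up to 3 past the threshold with the highest mean, and for each of the 7 genes the 3 with the highest Pearson's r over 28 libraries, of which 1 is not reported here. Ratios were compared with exact permutation tests. Alternatives were a pseudocount of 10, no filter, quantile normalization, edgeR, fits limited to the groups compared or to a number series, series as a covariate, and leaving out libraries. Tables and plots used Python 3.11.15.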

Additional observations from a re-analysis of the deposited data

Results flagged for a closer look

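Prok2 was at 0 in control_chronic_113, far from the other 4 control_chronic libraries, which were at 3.21 to 5.95. Fpr1 was at 3.18 in the same library, where the other 4 were at 0. Control_chronic_113 is the shallowest library, 1 read there is worth 3.18, and all these values are at or under the value of 3 reads in their libraries. Of 21 pairs of a gene and a group examined for a library far from the rest, these 2 stood out, and chance gives about 1 in 20.

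The effect of variable against constant ventilation on Retn differed between acutely injured and uninjured lungs by 5.15 on the log2 scale, by a test of that difference itself (limma adjusted p = 0.0339), which 39.0% of all genes passed. Acute_VCV lies wholly in series 12, which no other group of this test shares, so series and this difference cannot be told apart. The call was lost when any of 8 of the 14 libraries was left out, with differences of 4.44 to 5.39 and adjusted p up to 0.0788. Retn was higher in acute_noisy than in acute_VCV by 2.48 ± 1.34 and differed by -2.67 ± 1.34 in healthy_noisy against healthy_VCV, neither of which passed on its own. Acute_noisy 046 and healthy_VCV 057 were the lowest libraries of their groups, at 27.1 and 14.1.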

How the results depend on the processing

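No paired analysis was possible because no replicate number occurs in more than 1 of the groups compared. For ventilated against unventilated lungs the count stayed at 6 of 7 under every alternative run, except as follows. Chronic_VCV against control_chronic had 7 without the 2 shallowest control_chronic libraries. Acute_noisy against control_blank had 6 to 7 when a library was left out, 6 in the fit of the groups compared and 6 with quantile normalization. The genes were picked on this kind of contrast, so these steady counts describe the choice and test nothing. For acute_noisy against healthy_noisy, 4 of 7 became 0 in the fit limited to series 15, 0 in the fit of the groups compared and 0 with series as a covariate, and 0 to 6 without a library. For acute_VCV against healthy_VCV, 2 became 0 to 3 without a library. For control_chronic against control_blank, 2 became 1 with edgeR, 0 in the fit of the groups compared, 0 without the 2 shallowest control_chronic libraries and 0 to 2 without a library. For the acute minus uninjured mode effect, 1 became 0 to 3 without a library. The fit with 3 called 5755 of all 14908 genes. For the chronic minus uninjured mode effect, 0 became 2 in the fit of the groups compared, 2 with a pseudocount of 10, 1 with quantile normalization and 0 to 2 without a library. Over all 14908 genes the first 3 of these fits called 5433, 4583 and 4839. The comparisons with 0 of 7 not named here had 0 under every alternative run, and the ratio tests could pass in none at these group sizes. The cause of these shifts was not tested. Over all genes, acute_VCV against control_blank had 5563 calls, but 3573 in the fit of the groups compared. Acute_noisy against control_blank had 8911 calls, but 5921 in the fit of the groups compared. Acute_noisy against healthy_noisy had 3987 calls, but 10 in series 15, 8 in the fit of the groups compared and 732 with series as a covariate. Control_chronic against control_blank had 2214 calls, but 866 in the fit of the groups compared and 701 without the 2 shallowest control_chronic libraries. Chronic_VCV against healthy_VCV had 367 calls, but 0 in series 15, 1255 in the fit of the groups compared, 2 with series as a covariate and 686 with quantile normalization. Chronic_noisy against healthy_noisy had 699 calls, but 1775 in the fit of the groups compared, 1 with series as a covariate and 1.72 times as many with quantile normalization. The chronic minus uninjured mode effect had 4435 calls, but 6 with series as a covariate. The chronic minus uninjured effect of variable ventilation had 396 calls, but 223 without the 2 shallowest control_chronic libraries. Chronic_VCV against control_chronic had 2205 calls, but 1389 without the 2 shallowest control_chronic libraries. Healthy_noisy against control_blank had 4791 calls, but 2059 in the fit of the groups compared. Acute_noisy against acute_VCV had 3609 calls, but 0 in the fit of the groups compared. Chronic_noisy against chronic_VCV had 362 calls, but 33 in the fit of the groups compared and 9 with series as a covariate. Healthy_noisy against healthy_VCV had 1538 calls, but 0 in series 15, 3886 in the fit of the groups compared and 0 with series as a covariate. The share of calls that were higher was 63.6% with edgeR, against 48.2%, in acute_noisy against healthy_noisy, 38.4% with edgeR, against 62.6%, in control_chronic against control_blank, 61.8% with edgeR, against 48.4%, in chronic_noisy against healthy_noisy, 53.3% with edgeR, against 41.5%, in the chronic minus uninjured effect of constant ventilation, 53.5% with edgeR, against 36.4%, in the chronic minus uninjured effect of variable ventilation and 42.1% with edgeR, against 54.5%, in healthy_noisy against control_blank. Quantile normalization shifted the median of all genes to -0.13 in healthy_VCV against control_blank and to -0.15 in the acute minus uninjured mode effect. Depth limits Prok2 and Fpr1 in unventilated lungs.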
